A study of Mus musculus with 18 samples.

Results

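The 10 genes described here are expressed by the endothelial cells that line blood vessels, and they were followed in mouse liver from mid-gestation to adulthood. They were taken as the probe sets of an Affymetrix mouse expression array that map to exactly 1 of the symbols Stab1, Stab2, Lyve1, Kdr, Flt1, Tek, Eng, Pecam1, Cdh5 and Emcn. This gave 16 probe sets for 10 genes, out of 34945 probe sets with 1 symbol for 18193 genes. Stab1, Stab2 and Lyve1, with 4 probe sets, are sinusoidal markers, and the other 7 genes, with 12 probe sets, are general endothelial genes.

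All animals were CD-1 mice, an outbred stock, and the labels name no engineered allele and no treatment among the groups compared. Whole liver of embryos was taken 10.5 days post conception (dpc), on each of the next 4 days and lastly at 16.5 dpc, and each of these 6 stages has 2 arrays. Normal liver of females aged 10 weeks gave 2 adult arrays. What remained of the embryo once the liver was removed, written as the rest of the embryo, gave 1 array at each of the same stages up to 14.5 dpc other than 13.5 dpc. Each embryonic sample pooled at least 5 embryos, so the arrays show no difference between embryos. The labels call the replicates biological but tie none to a litter, so the p-values measure only the spread between these samples. For the adult samples the treatment text speaks of a resection, whereas title and description give baseline liver. Titles of the rest-of-embryo samples call them embryonic liver, whereas their source names give the embryo minus liver. The age field of later liver samples repeats 10.5 dpc. Tissue and stage were therefore taken from the source names.

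The liver sinusoid is a wide, leaky capillary whose endothelium is fenestrated and takes up waste molecules from the blood. Its cells carry the scavenger receptors stabilin-1 (Stab1) and stabilin-2 (Stab2) and the hyaluronan receptor Lyve1, which lymphatic endothelium and some macrophages also carry. General endothelial genes such as Kdr, Tek and Cdh5 are active in vessels of nearly every organ and serve growth factor signalling and the junctions between cells.

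Promoter sequence from RefSeq (build GRCm38.p6) was at hand for 7 of the 10 genes, not for Lyve1, Pecam1 or Cdh5. The 250 bases before the start of 3 of them are printed on the strand of the gene, because Stab2 rose most between 10.5 and 16.5 dpc and Tek and Emcn fell in the same interval. Capitals mark the letters AGGAAG or CGGAAG on either strand, the core bound by ETS factors, which are widespread regulators of endothelial genes. Stab2 lies at chr10:87007943-87008192 on the minus strand, Tek at chr4:94739039-94739288 on the plus strand and Emcn at chr3:137340828-137341077 on the plus strand.
Stab2: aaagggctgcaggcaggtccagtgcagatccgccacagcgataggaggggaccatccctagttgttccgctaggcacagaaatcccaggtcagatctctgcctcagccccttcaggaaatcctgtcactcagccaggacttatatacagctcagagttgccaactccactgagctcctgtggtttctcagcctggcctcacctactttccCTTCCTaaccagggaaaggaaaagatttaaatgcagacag
Tek: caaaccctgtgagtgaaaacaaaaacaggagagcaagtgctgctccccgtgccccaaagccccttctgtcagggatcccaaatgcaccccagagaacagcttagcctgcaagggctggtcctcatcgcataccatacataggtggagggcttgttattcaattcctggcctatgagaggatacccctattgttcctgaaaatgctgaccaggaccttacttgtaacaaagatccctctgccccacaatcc
Emcn: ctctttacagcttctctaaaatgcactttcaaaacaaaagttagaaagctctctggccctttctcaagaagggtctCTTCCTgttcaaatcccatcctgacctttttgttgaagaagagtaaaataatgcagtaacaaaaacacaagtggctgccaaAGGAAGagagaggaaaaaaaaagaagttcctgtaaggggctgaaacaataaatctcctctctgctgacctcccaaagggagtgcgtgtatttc
Stab2 held 1 such match, 40 bases before the start, Emcn held 2, at 174 and 93 bases before the start, and Tek held none. Of the 7 promoters, 5 held a match (Stab1, Stab2, Flt1, Eng and Emcn), against 39.2% of 32851 promoters of the same length. The letters AGATAA or TGATAA, on either strand, stand for GATA factors and were in 0 of the 7, against 16.6% of all promoters. A match is a description of letters, and the motifs were chosen after these sequences were seen.

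Values are array intensities on a linear scale, and differences are on a log2 scale after values under 24.8 were raised to that floor. A gene was tested when it exceeded 77.9 on at least 2 arrays, and a change was called at a Benjamini-Hochberg adjusted p (limma) under 0.05 together with a difference of 1 log2 (2-fold) or more. Of the general genes, Emcn and Pecam1 exceeded that level on 2 of the 14 liver arrays each and Flt1 on 3. They entered the liver fit through the arrays where they were highest, so a count of their calls is not support for a direction. Intensities of different probe sets are not compared with each other.

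Several measurements on the arrays move with stage and bear on the values below. The summed intensity of 17 heart muscle markers was 16870 and 28740 on the 10.5 dpc liver arrays, 953 to 1005 at 11.5 dpc, 5086 and 13860 at 12.5 dpc and at most 2390 at later stages. The ratio of 3' to 5' Gapdh signal, which rises as RNA degrades, was 2.82 on replicate 1 at 10.5 dpc and 0.744 to 0.886 on the other liver arrays. The summed hepatocyte markers were 12670 to 12820 at 10.5 dpc and 48640 to 49400 at 16.5 dpc, against 2229 to 13100 in the rest of the embryo. In whole tissue, fewer cells of a type and less RNA per cell cannot be told apart.

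The sinusoidal markers were higher in late embryonic liver than at 10.5 dpc. Stab2 rose by 2.00 log2 and Lyve1 by 1.07 log2, or 2.10-fold, and Stab1 differed by 0.58 log2, below the level of a call. The 3 genes reached these levels at different stages and parted again in adult liver.

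Stab2 encodes the receptor that clears hyaluronan and other matrix fragments in the sinusoid. Its intensity was 46.6 and 52.4 at 10.5 dpc, 106.8 and 109.4 a day later, 111.6 and 106 at 12.5 dpc, then 142.7 and 174.9 at 13.5 dpc. It was 165.3 and 194.4 at 14.5 dpc, 198 and 197.6 on the 16.5 dpc arrays, then 329.1 and 308.1 in adult liver. No array of 11.5 dpc or later overlapped those of 10.5 dpc, and both adult arrays lay above all embryonic ones. The difference between 16.5 and 10.5 dpc was 2.00 log2 (SE 0.15, adjusted p = 3.24e-06), and it lay between 1.85 and 2.09 log2 under all 23 alternatives tried. More than 1 log2 of it came in the first day, with a rise of 1.13 log2 between 10.5 and 11.5 dpc (SE 0.15, adjusted p = 0.000897). From 11.5 to 16.5 dpc it differed by a further 0.87 log2 (SE 0.15, adjusted p = 0.00213), which is under the 1 log2 set for a call.

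Lyve1, a membrane receptor for hyaluronan, changed early and then levelled off. It read 89.9 and 116.8 at 10.5 dpc, 221.1 and 246.3 a day later, 260.1 and 246.8 at 12.5 dpc, then 258.5 and 295.6 at 13.5 dpc. Later arrays gave 212.3 and 181.7 at 14.5 dpc, 207.3 and 224.2 on the 16.5 dpc arrays, then 100.2 and 81.9 in adult liver. The adult arrays lay within or below the range of the 10.5 dpc arrays and below every array in between. Lyve1 rose by 1.19 log2 from 10.5 to 11.5 dpc (SE 0.17, adjusted p = 0.0013) and was 1.07 log2 higher at 16.5 than at 10.5 dpc (SE 0.17, adjusted p = 0.000556). Both calls missed the 1 log2 threshold without replicate 1 at 10.5 dpc, with 0.998 and 0.884 log2, and the second also under median centring (0.99) and quantile normalization (0.96). A second Lyve1 probe set gave a difference of 1.53 log2 between 16.5 and 10.5 dpc.

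Stab1, a scavenger receptor of sinusoidal endothelium and of some macrophages, moved over a narrower range and later. Its intensities were 123.8 and 107.6 at 10.5 dpc, 102.6 and 109 a day later, 135.2 and 166.7 at 12.5 dpc, then 194.4 and 169.6 at 13.5 dpc. They were 161.7 and 191.7 at 14.5 dpc, 170.4 and 175.8 on the 16.5 dpc arrays, then 156 and 161.1 in adult liver. Every array from 12.5 dpc onward exceeded every array of 10.5 and 11.5 dpc. The difference was 0.58 log2 between 16.5 and 10.5 dpc (SE 0.16, adjusted p = 0.0137) and 0.71 log2 between 16.5 and 11.5 dpc (SE 0.16, adjusted p = 0.00887), neither of which was called.

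**Figure D1:**
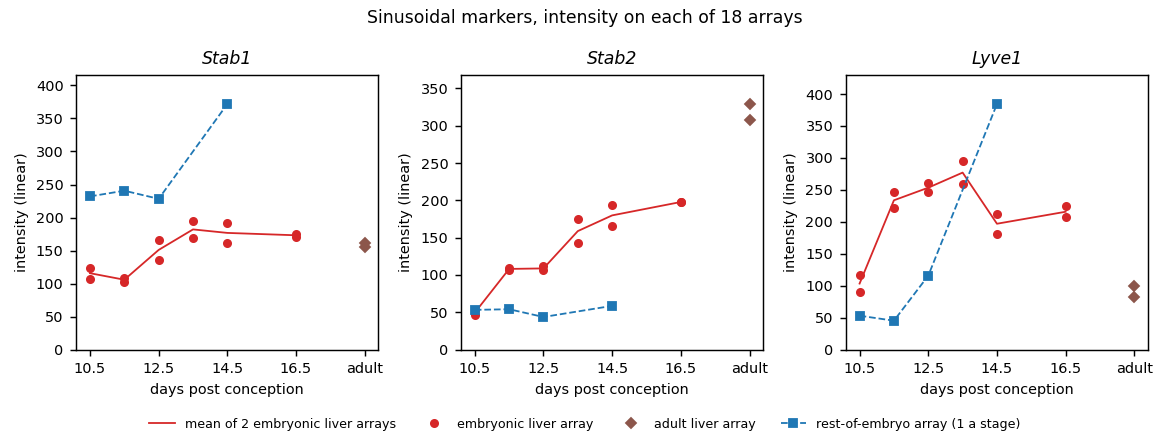
Array intensity (linear scale) of Stab1, Stab2 and Lyve1 against days post conception, with adult liver at the right. Points are single arrays, the line joins the means of 2 embryonic liver arrays and squares are the single rest-of-embryo arrays. Stab2 goes from 46.6 and 52.4 at 10.5 dpc to 198 and 197.6 at 16.5 dpc, while Lyve1 is highest in liver at 13.5 dpc, with 258.5 and 295.6.

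Macrophage genes changed over the same stages as these markers. The summed intensity of 16 macrophage and Kupffer cell markers was 2105 to 3300 at 10.5 dpc, 2977 to 3332 at 11.5 dpc, 5943 to 6304 at 16.5 dpc and 5252 to 5485 in adult liver. At 10.5 dpc 7 of the 16 lay at the floor on both arrays, among them Marco, Cd5l, C1qa and Clec4f. Of 15 tested, 10 were higher at 16.5 than at 10.5 dpc and 0 lower, with a median of 1.77 log2. Over all genes tested, 10.4% were higher and 6.98% lower. The part of macrophages in the Stab1 and Lyve1 values was not tested.

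Among general endothelial genes, the receptor Tek and the surface mucin Emcn fell between 10.5 and 16.5 dpc, and Eng, a co-receptor, rose. Of the 7, then, 1 was higher, 2 were lower and 4 were not called, and of the 3 sinusoidal markers 2 were higher. Emcn was tested only through its 10.5 dpc arrays, where it is high, and is no support for the count of lower genes. Over all 14125 genes tested in liver, 17.4% were called in this comparison, 10.4% as higher and 6.98% as lower. The median difference was -0.87 log2 over the general genes, 1.07 log2 over the sinusoidal markers and 0.05 log2 over all genes tested.

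Kdr encodes the main signalling receptor of vessels for vascular endothelial growth factor A. It was highest at 10.5 dpc, with 425.4 and 438.6, and read 316.7 and 273.7 a day later, 241.2 and 294.6 at 12.5 dpc, then 219.3 and 300.0 at 13.5 dpc. It read 261.9 and 235 at 14.5 dpc, 229 and 242.7 on the 16.5 dpc arrays, then 314.5 and 249.9 in adult liver. No later liver array reached the 10.5 dpc values. The 11.5 dpc arrays lay above those of 14.5 and 16.5 dpc, the adult arrays lay above those of 16.5 dpc, and the 12.5 and 13.5 dpc arrays overlapped all later groups. The difference between 16.5 and 10.5 dpc was -0.87 log2 (SE 0.18, adjusted p = 0.00304), under the size set for a call.

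Flt1, a high-affinity receptor for the same growth factor that also exists as a soluble trap, stayed near the lower end of measurable signal in embryonic liver. Its embryonic arrays ran from 46.6 to 78.3 with a median of 57.1, and its adult arrays gave 122.8 and 90.1, above all of them. The difference between 16.5 and 10.5 dpc was -0.65 log2 (SE 0.21, adjusted p = 0.0372) and was not called. The other 3 Flt1 probe sets exceeded the filter on 0 liver arrays.

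Tek is the endothelial receptor for angiopoietins, which steady or loosen vessel walls. It read 240.2 and 223.7 at 10.5 dpc, 122.4 and 133.7 a day later, 87.5 and 120.1 at 12.5 dpc, then 73.8 and 94.3 at 13.5 dpc. It read 85.0 and 78.4 at 14.5 dpc, 74.8 and 72.8 on the 16.5 dpc arrays, then 122.7 and 99.8 in adult liver. The 10.5 dpc arrays lay above all other liver arrays, and the adult arrays lay above those of 13.5 to 16.5 dpc. Tek fell by 1.65 log2 from 10.5 to 16.5 dpc, a 3.14-fold decrease (SE 0.19, adjusted p = 6.68e-05), and the call held in each alternative fit.

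Eng encodes endoglin, a co-receptor for ligands of the transforming growth factor beta family. The 10.5 dpc arrays of its main probe set gave 43.1 and 131.6 and so differed by 1.61 log2, the widest gap between replicates of any of the 10 genes. Its other liver arrays ran from 143 at 11.5 dpc to 247.8 at 13.5 dpc, with 211.4 and 179.8 at 16.5 dpc and 236.1 and 222 in adult liver. The rise of 1.37 log2 from 10.5 to 16.5 dpc (SE 0.39, adjusted p = 0.0178) rested on the lower array. It was 0.57 log2 without that array (adjusted p = 0.0516), 0.76 log2 as the mean over the Eng probe sets, and not called without either 16.5 dpc array (adjusted p = 0.0925 and 0.0509). The low array is the one with the Gapdh ratio of 2.82, whose part in the Eng value was not tested.

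Pecam1 and Cdh5 are adhesion proteins of the junctions between endothelial cells, and Pecam1 is also on platelets and white cells. Pecam1 read 75.8 and 116.7 at 10.5 dpc and 58.6 and 44.8 at 16.5 dpc, a difference of -0.88 log2 (SE 0.24, adjusted p = 0.0139) that was not called. Without replicate 1 at 10.5 dpc the Pecam1 difference was -1.19 log2 and passed (adjusted p = 0.00483), as it did without replicate 1 at 16.5 dpc (-1.07, adjusted p = 0.0203). Cdh5 read 255.2 and 285.2 at 10.5 dpc, 128.4 and 240.0 a day later, then 168.5 and 177 at 16.5 dpc. The lower Cdh5 array at 11.5 dpc was below all other liver arrays, and the difference between 16.5 and 10.5 dpc was -0.64 log2 (SE 0.25, adjusted p = 0.0691).

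Emcn encodes endomucin, a sialic acid-rich mucin of capillary and venous endothelium that hinders the attachment of white cells. It read 192.4 and 147 at 10.5 dpc, 57.8 and 73.4 a day later, 61.8 and 66.4 at 12.5 dpc, then 37.2 and 22.3 at 13.5 dpc. It read 15.3 and 25.1 at 14.5 dpc, 26.5 and 27.6 on the 16.5 dpc arrays, then 38.4 and 35.2 in adult liver. The 10.5 dpc arrays lay above the others without overlap, and 2 later arrays lay under the floor. Emcn fell by 2.64 log2 from 10.5 to 16.5 dpc, a 6.23-fold decrease (SE 0.22, adjusted p = 6.87e-06). Without either 10.5 dpc array Emcn no longer passed the filter and had no test.

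**Figure D2:**
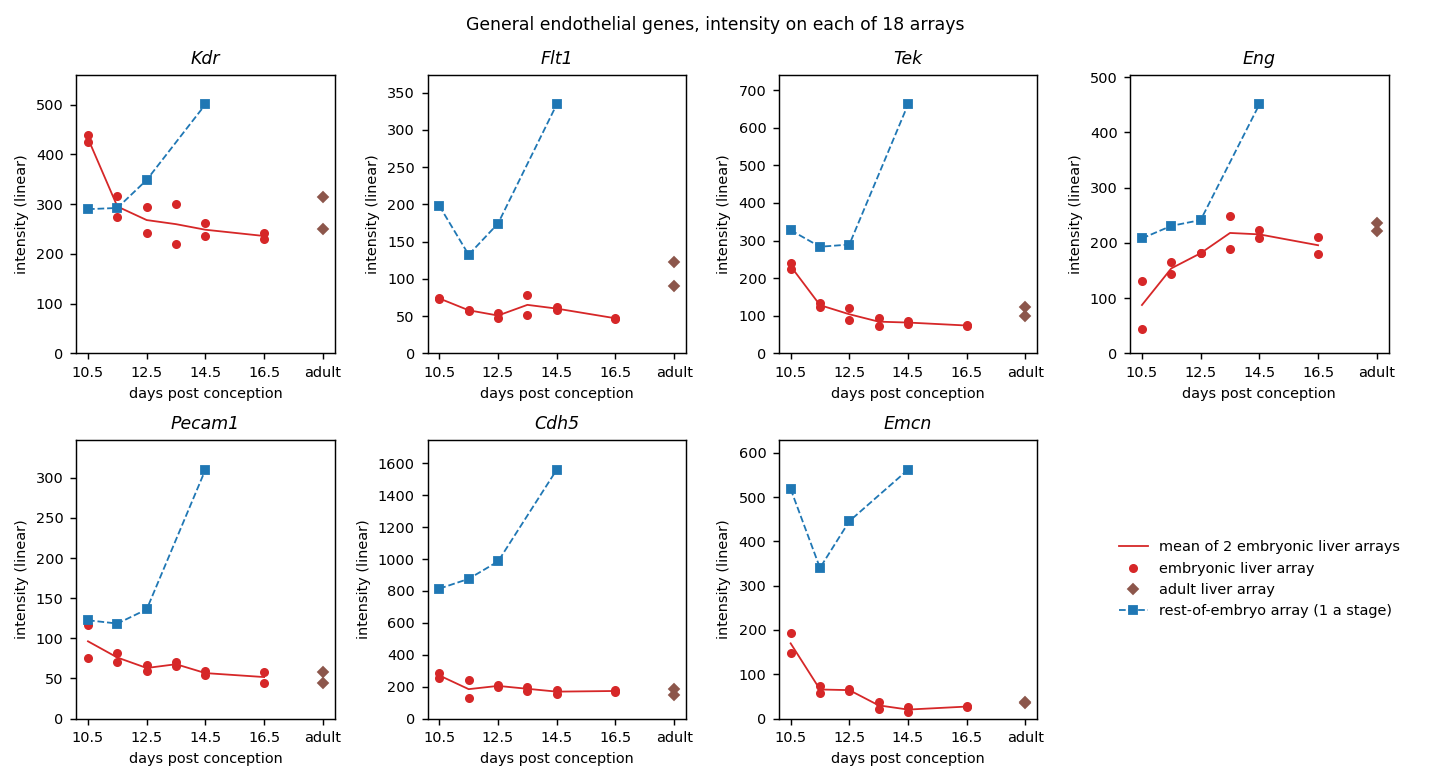
Array intensity (linear scale, own axis per gene) of the 7 general endothelial genes against days post conception, drawn as for the sinusoidal markers. In liver, Tek and Emcn are highest at 10.5 dpc, with 240.2 and 223.7 and with 192.4 and 147, while the rest-of-embryo value is highest at 14.5 dpc for each of the 7 genes.

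A list of endocardium and valve markers, as a sum, moved in the same direction as Tek and Emcn. The summed intensity of 9 endocardium and valve markers was 2940 to 3453 at 10.5 dpc, 1642 to 1667 at 11.5 dpc and 1085 to 1088 at 16.5 dpc. Of 8 tested, 4 fell between 10.5 and 16.5 dpc and 0 rose, while 6.98% of all genes tested were lower and 10.4% higher. The largest falls were those of Cdh11 (-3.60 log2) and Tbx20 (-3.025 log2). Tbx20 exceeded the filter level on 4 of the 14 liver arrays, all at 10.5, 11.5 and 12.5 dpc, so its call is no support for that count. As the mean over its 3 probe sets Tbx20 had no test. Of the 17 heart muscle markers, 14 fell between 10.5 and 16.5 dpc. Endocardium is itself endothelium and carries the general genes. Its part in the Kdr, Tek, Cdh5 and Emcn values at 10.5 dpc was not tested.

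At 11.5 dpc the heart muscle sum was 953 to 1005. Measured from that stage, the difference to 16.5 dpc was nearer 0 than from 10.5 dpc for 9 of the 10 genes, the exception being Stab1 (0.71 against 0.58 log2). Of the 10 genes 1 was called between 11.5 and 16.5 dpc, against 8.76% of all genes tested, 6.22% as higher and 2.54% as lower. Emcn fell by 1.27 log2 (SE 0.22, adjusted p = 0.00232), although every Emcn array at 11.5 and 16.5 dpc lay under the filter level. This call was lost with a higher floor of 54.9 (-0.25 log2) and could not be tested without either 10.5 dpc array. Tek differed by -0.79 log2 (SE 0.19, adjusted p = 0.0143) and Pecam1 by -0.57 log2 (adjusted p = 0.112). Lyve1 differed by -0.11 log2 and Cdh5 by -0.02 log2, and both changed sign among the alternatives.

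By stage, the first interval held all calls among the members. Between 10.5 and 11.5 dpc Stab2 and Lyve1 rose and Emcn fell by 1.37 log2 (SE 0.22, adjusted p = 0.00248). These were 3 of 10 genes, against 5.66% of all genes tested, 2.97% as higher and 2.69% as lower. Emcn exceeded the filter level only on the 10.5 dpc arrays, so its call is no support for a direction. Without replicate 1 at 10.5 dpc only Stab2 kept its call, since Lyve1 then stood at 0.998 log2 and Emcn was not tested. In the 4 later intervals 0 members were called, against 2.95% of genes from 11.5 to 12.5 dpc, 0.085% from 12.5 to 13.5 dpc, 0.0566% from 13.5 to 14.5 dpc and 0.0354% from 14.5 to 16.5 dpc. At an unadjusted p under 0.05 those later intervals held differences of Stab1 (0.51 log2 from 11.5 to 12.5 dpc), Stab2 (0.54 log2 from 12.5 to 13.5 dpc), Emcn (-1.08 log2 from 12.5 to 13.5 dpc) and Lyve1 (-0.49 log2 from 13.5 to 14.5 dpc).

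Over the 6 stages together, a moderated F test called Stab2, Lyve1, Tek and Emcn, 4 of 10 genes, against 19.6% of all genes tested. Here too Emcn was tested only through its 10.5 dpc arrays. Without the 10.5 and 12.5 dpc arrays, those with the higher heart muscle sums, 0 members were called. The range of the remaining stage means was then 0.87 log2 for Stab2 (adjusted p = 0.014), 0.79 log2 for Tek (adjusted p = 0.0474) and 0.49 log2 for Lyve1 (adjusted p = 0.183), and Emcn was not tested.

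**Figure D3:**
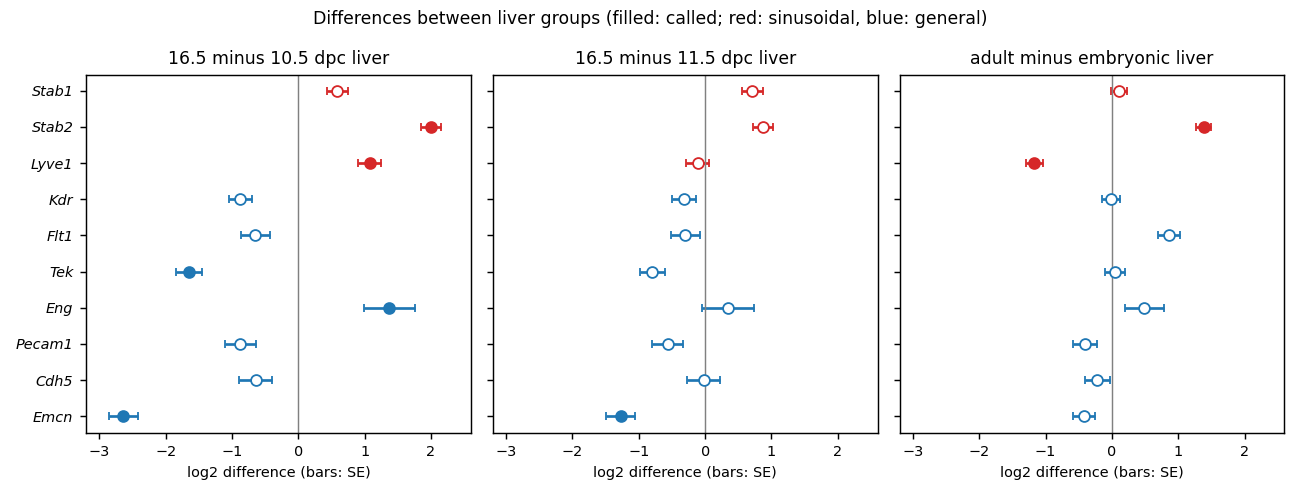
Log2 differences (points, with bars of 1 SE) of the 10 genes between liver groups, with sinusoidal markers in red and general genes in blue, filled where called. Between 16.5 and 10.5 dpc Stab2 lies at 2.00 and Emcn at -2.64, between 16.5 and 11.5 dpc only Emcn is filled, and in adult liver Stab2 lies at 1.39 and Lyve1 at -1.17.

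The other genes of the pathway gave a mixed picture. Of 20 other sinusoidal genes tested, 1 was higher at 16.5 than at 10.5 dpc, 2 were lower, and the median difference was 0.29 log2, against 0.05 log2 over all genes. Among all genes tested, 10.4% were higher and 6.98% lower. Cd36, a fatty acid transporter, rose by 1.74 log2 (SE 0.21, adjusted p = 8.01e-05) from 42.8 and 53.5 at 10.5 dpc to 160.4 and 159.9 at 16.5 dpc. As the mean over its 3 probe sets the Cd36 difference was 1.165 log2. Cd36 exceeded the filter level on 9 of the 14 liver arrays, all of 12.5 dpc or later, so its call is no support for a direction. The transcription factor Gata4, which the heart also uses, fell by 1.93 log2 (adjusted p = 0.000266). The signalling protein Wnt2 was called as lower, at 171.5 and 192 on the 10.5 dpc arrays and 26.1 to 29.9 at 16.5 dpc. Wnt2 exceeded the filter level only on those 10.5 dpc arrays of the 14, so it was tested only because it was high there and its call is no support for a direction.

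Of 35 other general endothelial genes tested, 3 were higher at 16.5 than at 10.5 dpc and 6 were lower, with a median of -0.37 log2. These counts compare with 10.4% higher and 6.98% lower among all genes. The apelin receptor Aplnr fell by 3.38 log2 (SE 0.19, adjusted p = 5.52e-07), from 492.1 and 641.1 at 10.5 dpc to 48.8 and 59.5 at 16.5 dpc, and the co-receptor Nrp2 fell by 1.98 log2 (adjusted p = 5.72e-05). Tal1, a factor of blood and endothelial precursors, rose by 2.90 log2 (adjusted p = 1.12e-07). Notch4 rose by 2.42 log2 (adjusted p = 6.49e-05), but as the mean over its 3 probe sets the difference was 0.87 log2 and not called. Summed red cell markers were 2046 to 2290 at 10.5 dpc and 23660 to 23830 at 16.5 dpc, and their part in the Tal1 values was not tested.

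Ligands of these receptors were read as well. Of 14 tested, 1 was higher at 16.5 than at 10.5 dpc and 3 were lower, with a median of -0.05 log2. The shares of all genes tested were 10.4% higher and 6.98% lower. Angpt1, the activating ligand of Tek, fell by 2.68 log2 (SE 0.23, adjusted p = 8.43e-06), from 229.4 and 247.1 to 29.1 and 47.5. As the mean over its 2 probe sets the Angpt1 difference was -1.54 log2. Angpt1 exceeded the filter level on 6 of the 14 liver arrays, all at 10.5, 11.5 and 12.5 dpc, so its call is no support for a direction. Vegfc, a lymphatic growth factor, fell by 2.21 log2 (adjusted p = 0.000162), with both 16.5 dpc arrays under the floor. It exceeded the filter level on 3 of the 14 liver arrays, all at 10.5 and 11.5 dpc, so its call is no support for a direction. Tgfb1 rose by 1.34 log2 (adjusted p = 0.0447), a call lost as the mean over its 2 probe sets (0.999 log2).

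The adult liver separated the sinusoidal markers from each other. Set against the mean of the 6 embryonic stages, Stab2 rose by 1.39 log2, or 2.62-fold (SE 0.11, adjusted p = 1.04e-06), and Lyve1 fell by 1.17 log2 (SE 0.13, adjusted p = 1.21e-05), while Stab1 differed by 0.11 log2 (adjusted p = 0.447). These were the 2 calls among the 10 genes, against 35.5% of all genes tested, 11.9% as higher and 23.7% as lower. The median over all genes tested was -0.21 log2, and -0.07 with median centring and -0.01 with quantile normalization. Without the 10.5 and 12.5 dpc arrays Stab2 differed by 1.02 log2 and Lyve1 by -1.34 log2, and both stayed called. The second Lyve1 probe set differed by -1.25 log2.

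Between adult and embryonic liver 0 of the 7 general genes were called by limma, and 3 (Flt1, Pecam1 and Emcn) had an unadjusted p under 0.05. Flt1 came nearest, at 0.86 log2 (SE 0.16, adjusted p = 0.000812), and passed without the second adult array (1.08 log2, adjusted p = 0.00252). Kdr differed by -0.01 log2 and Tek by 0.04 log2, and both changed sign among the alternatives. Measured from 16.5 dpc instead, Lyve1 fell by 1.25 log2 (SE 0.17, adjusted p = 8.6e-05) and Flt1 rose by 1.16 log2 (SE 0.21, adjusted p = 0.000824), 2 of 10 genes against 33.1% of all genes tested, 10.3% as higher and 22.8% as lower. The Flt1 call was lost without adult replicate 1 (0.94 log2, adjusted p = 0.0147) and with the higher floor (0.94 log2). Stab2 differed by 0.69 log2 (SE 0.15, adjusted p = 0.00237) and was called under quantile normalization (1.03 log2).

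Of the 20 other sinusoidal genes, 3 were higher in adult than in embryonic liver and 0 lower, with a median of 0.50 log2. Over all genes tested, 11.9% were higher and 23.7% lower, with a median of -0.21 log2. Quantile normalization, under which the median over all genes was -0.01 log2, gave 6 higher sinusoidal genes. The shares of all genes given here are as deposited. The nuclease gene Dnase1l3 read 318.6 and 382.9 in adult liver against 21.7 and 29.4 at 16.5 dpc, and the coagulation factor gene F8 read 78.8 and 104.6 against 24.6 and 27.3. Both are among the 3, and both exceeded the filter level only on the 2 adult arrays, so they could be called only as higher and are no support for that count. In both, embryonic arrays lay under the floor. Among macrophage markers 6 of 15 were higher and 2 lower, against 11.9% and 23.7% of all genes tested. Vsig4, a marker of resident liver macrophages, read 288.6 and 339.1 in adult liver and at most 27.1 in embryonic liver. Vsig4 too exceeded the filter level only on the 2 adult arrays, so its call is no support for the macrophage count. The part of macrophages in the adult values was not tested.

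Of the 35 other general genes, 4 were higher and 9 lower in adult liver, with a median of -0.15 log2. These counts are near the shares of all genes tested, 11.9% higher and 23.7% lower, with a median of -0.21 log2. The transcription factor Erg rose by 3.30 log2 (adjusted p = 8.33e-07) and the phosphatase Ptprb by 2.68 log2, although Ptprb too exceeded the filter level only on the 2 adult arrays. The precursor factor Tal1 fell by 5.26 log2 (adjusted p = 1.64e-11) and Lmo2 fell by 4.91 log2 (adjusted p = 5.56e-11), and summed red cell markers fell to 572.5 and 611 in adult liver. Of the 14 ligands, 1 was higher and 4 were lower, against the same shares of all genes. Vegfa rose by 1.54 log2 (adjusted p = 9.12e-07), a call lost as the mean over its 2 probe sets (0.72 log2), while Tgfb1 fell by 2.25 log2 (adjusted p = 0.000191) and Sema3a by 2.04 log2 (adjusted p = 2.23e-07).

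The comparison with the rest of the embryo crosses 2 forms of deposited values, so tissue and processing cannot be told apart. The liver arrays held 1216 to 1535 negative values each and had medians of 69.8 to 79.5, whereas the rest-of-embryo arrays held 0 negative values, 35 to 41 exact zeros and medians of 91.9 to 106.8. Over all genes tested the median difference, liver minus rest, was -1.04 log2, and -0.39 with median centring and -0.15 with quantile normalization. Each difference below should be read against these shifts.

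As deposited, 5 of the 7 general endothelial genes were called as lower in liver and 0 of the 3 sinusoidal markers were called. Among all genes tested 65.1% were called, 14% as higher and 51.2% as lower, so 5 lower calls among 10 members is near the share of all genes. Cdh5 gave 814.3, 875.7, 984.7 and 1560 in the rest of the embryo at the 4 stages and 128.4 to 285.2 on the matched liver arrays. Emcn gave 518.1, 340.0, 445.5 and 561.7 in the rest of the embryo and 15.3 to 192.4 in liver. Neither gene's tissues overlapped at any stage. Over the 12 arrays Cdh5 differed by -2.35 log2 (SE 0.23, adjusted p = 3.01e-06) and Emcn by -2.82 log2 (SE 0.35, adjusted p = 1.79e-05). Flt1 differed by -1.72 log2 (SE 0.19, adjusted p = 5.93e-06), Tek by -1.54 log2 (SE 0.31, adjusted p = 0.000759) and Pecam1 by -1.15 log2 (SE 0.29, adjusted p = 0.0031).

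Flt1 exceeded the filter level only on the rest-of-embryo arrays and so was tested only through the tissue where it is high. Tek and Pecam1 were not called under median centring (-0.89 and -0.50 log2) or quantile normalization (-0.74 and -0.71 log2). The calls of Flt1, Cdh5 and Emcn held under both, although the mean over the Cdh5 probe sets gave -0.90 log2, since the second Cdh5 probe set, which exceeded the filter on 0 liver arrays, differed by 0.56 log2. Kdr differed by -0.20 log2 (adjusted p = 0.365) as deposited and by 0.44 and 0.76 log2 under the respective scalings, a change of sign. Eng differed by -0.88 log2 (SE 0.27, adjusted p = 0.0103), which was -0.24 under median centring and -0.11 log2 under quantile normalization.

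Stab2 and Lyve1 read higher in liver and Stab1 lower, and none of the 3 was called as deposited. The rest-of-embryo arrays of Stab2 gave 53.2, 54.1, 43.7 and 58.6, and every liver array from 11.5 dpc onward lay above all of them, while at 10.5 dpc the liver arrays lay just below the matched array. The difference was 0.96 log2 (SE 0.23, adjusted p = 0.00269), just under a call, and it was called with median centring (1.603 log2) and quantile normalization (1.18 log2). Stab2 exceeded the filter level on 6 liver arrays and 0 rest-of-embryo arrays, so it was tested only through the tissue where it is high. Lyve1 read 53.0, 45.2, 115.7 and 384.4 in the rest of the embryo. Its liver arrays lay above the matched array up to 12.5 dpc and below it at 14.5 dpc. Lyve1 differed by 0.87 log2 (SE 0.39, adjusted p = 0.0565) and was called with median centring (1.52 log2) and quantile normalization (1.42 log2). The second Lyve1 probe set differed by 1.70 log2, and the mean over the Lyve1 probe sets by 1.29 log2, which was called. Over 20 alternatives the Lyve1 difference ran from 0.37 to 1.52 log2. Stab1 read 232, 240.6, 228.3 and 371.9 in the rest of the embryo, above every liver array of the same stage, and differed by -0.97 log2 (SE 0.13, adjusted p = 3.63e-05), near the -1.04 log2 of all genes. Under median centring the Stab1 difference was -0.32 log2 (adjusted p = 0.0485) and under quantile normalization -0.23 log2 (adjusted p = 0.188). Leaving out the 10.5 and 12.5 dpc arrays gave calls for Stab1 (-1.13 log2) and Stab2 (1.31 log2) as well, 7 calls in all.

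Other genes of both kinds were read in the same way. Of 18 other sinusoidal genes tested, 6 were higher in liver and 3 lower, with a median of 0.63 log2 against -1.04 log2 for all genes. As deposited, 14% of all genes tested were higher and 51.2% lower. Median centring gave 12 higher and 3 lower sinusoidal genes. The median over all genes was then -0.39 log2, so the shares as deposited are not the background of these 2 counts. Oit3, a sinusoidal secreted protein, read 140.0 to 292.8 on the matched liver arrays and at most 30.8 in the rest of the embryo, a difference of 3.13 log2 (SE 0.17, adjusted p = 2.74e-08). The lectin Clec4g differed by 2.96 log2 (SE 0.66, adjusted p = 0.00144), but 1 of its 11.5 dpc liver arrays read -76.1 and the mean over its 2 probe sets differed by 0.54 log2. Both genes exceeded the filter level on liver arrays only. Wnt2 and Bmp2 were lower in liver, by -1.81 log2 (adjusted p = 0.00207) and -1.69 log2 (adjusted p = 0.000263).

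Of 37 other general genes, 1 was higher and 23 were lower in liver, with a median of -1.33 log2. This compares with 14% higher and 51.2% lower among all genes, as deposited. Either scaling gave 2 higher and 15 lower of the general genes. The median over all genes was then -0.39 log2 with median centring and -0.15 log2 with quantile normalization. Nrp2 differed by -3.26 log2 (adjusted p = 1.43e-06), Aplnr by -3.19 log2 (adjusted p = 6.81e-06), and Lmo2 by 1.41 log2 (adjusted p = 0.000197). Of 16 ligands, 4 were higher and 9 lower, against 14% and 51.2% of all genes. Angpt2, a modulating ligand of Tek, read 208.9 to 661.8 on the matched liver arrays and at most 49.2 in the rest of the embryo (3.45 log2, adjusted p = 7.09e-07), and Angpt4 differed by 3.60 log2 with all 4 rest-of-embryo arrays under the floor. Both were tested through liver arrays only. As the mean over 2 probe sets each, the differences were 1.41 log2 for Angpt2 and 1.115 log2 for Angpt4. Vegfc and Vegfd were lower in liver, by -3.07 log2 (adjusted p = 2.68e-06) and -2.94 log2 (adjusted p = 1.16e-07), Vegfd being tested through rest-of-embryo arrays only. Lymphatic markers, summed over 6 genes, were 2668 to 3611 in the rest of the embryo and 1440 to 1723 on the matched liver arrays. Of the 6, 1 was higher and 2 were lower in liver, against 14% and 51.2% of all genes. Their median was -0.57 log2, against -1.04 log2 for all genes, so the sums do not set these markers apart from the shift of all genes. The part of lymphatic vessels in the Lyve1 values of the rest of the embryo was not tested.

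The difference between tissues also changed with stage. For Stab2 the liver stood at -0.11 log2 against the rest of the embryo at 10.5 dpc, 0.999 at 11.5 dpc, 1.31 at 12.5 dpc and 1.61 at 14.5 dpc. For Lyve1 the values were 0.95, 2.37, 1.13 and -0.97 log2. For Emcn they were -1.62, -2.38, -2.80 and -4.49 log2, and for Tek -0.50, -1.15, -1.497 and -3.02 log2. Stab2 thus gained on the rest of the embryo at each stage while Tek and Emcn lost ground.

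As a slope, the Stab2 difference rose by 0.39 log2 per day (SE 0.10, adjusted p = 0.0234). Without the rest-of-embryo array at 10.5 dpc the Stab2 slope was 0.20 log2 per day and was not called. The differences of Emcn (-0.71), Tek (-0.62), Lyve1 (-0.61), Pecam1 (-0.53), Kdr (-0.39), Cdh5 (-0.37) and Flt1 (-0.30 log2 per day) were called as falling, with adjusted p from 0.00134 to 0.0478. Stab1 (0.01) and Eng (0.06 log2 per day) were not called. These 8 calls compare with 16.1% of all genes tested, 6% as rising and 10.1% as falling. Without the rest-of-embryo array at 14.5 dpc, which removes the last matched stage from the comparison, 0 members were called. The slopes were then 0.71 for Stab2 (adjusted p = 0.0501), -0.59 for Emcn (adjusted p = 0.0977), -0.50 for Tek (adjusted p = 0.125) and -0.48 for Kdr (adjusted p = 0.0734). Those of Pecam1 (-0.37), Cdh5 (-0.34) and Flt1 (-0.18) had adjusted p from 0.343 to 0.586, and Lyve1 changed sign to 0.09 log2 per day (adjusted p = 0.905). Over all 19 alternatives Stab2 lost its call in 3, Lyve1 lost its call in 13 and reversed in 1, and Cdh5 lost its call in 12. On that array, relative to the rest of the embryo at 10.5 dpc, intensities were 7.25-fold for Lyve1, 2.53-fold for Pecam1, 2.17-fold for Eng, 2.02-fold for Tek, 1.92-fold for Cdh5, 1.73-fold for Kdr, 1.69-fold for Flt1, 1.603-fold for Stab1, 1.10-fold for Stab2 and 1.08-fold for Emcn, and 10.6% of all genes tested were at least 1 log2 higher there. Of 37 other general genes 19 had a falling difference, against 10.1% of all genes tested, and 1 did without that array.

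**Figure D4:**
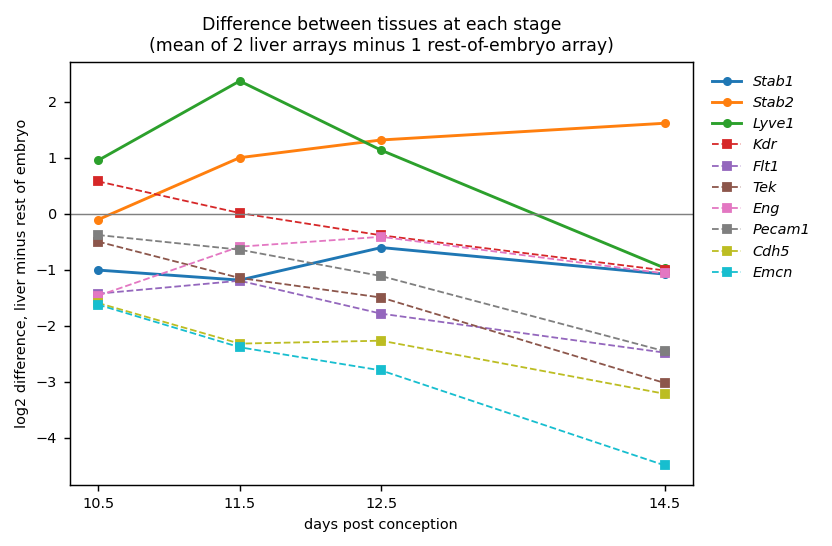
Log2 difference between the mean of 2 liver arrays and the single rest-of-embryo array at the 4 matched stages (x axis, dpc), on values as deposited, with sinusoidal markers as solid and general genes as dashed lines. Stab2 goes from -0.11 to 1.61 and Emcn from -1.62 to -4.49. Kdr goes from 0.58 to -1.01, and its mean difference over the stages is negative as deposited but positive under either scaling.

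Likeness of pattern was measured over the 14 liver arrays by Pearson's r of log2 intensity, which arrays of the same stages share, so it is given as a description. Members and predicted genes aside, the 5 genes most like Stab2 were C1s1 (r 0.99), F5, Hpn, F12 and Ddx27 (r 0.98 each). C1s1 went from a mean of 28.6 at 10.5 dpc to 307.1 at 16.5 dpc and 728.5 in adult liver. Among the other members Eng came closest to Stab2 (r 0.78, rank 894 of 14124 genes), followed by Stab1 (r 0.64, rank 1689), and Emcn ran opposite (r -0.86, rank 13414).

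Chosen in the same way, the 5 genes most like Cdh5 were Mrps2, Lyrm2 and R3hdm2 (r 0.90 each), Spry2 and St8sia2 (r 0.88 each). Mrps2 went from a mean of 508.4 at 10.5 dpc to 394.8 at 16.5 dpc and 353.4 in adult liver. Emcn and Pecam1 were at r 0.68 with Cdh5 (ranks 503 and 504), Tek at r 0.66 (rank 652) and Kdr at r 0.61 (rank 1004), while Flt1 was at r 0.09. No member was thus among the genes nearest to Stab2 or Cdh5 in these arrays.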

How the data were processed

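Per the labels' protocols, Trizol-extracted RNA of 18 samples was biotin-labelled and read on Affymetrix mouse arrays. The authors deposited 1 table of probe set intensity values on a linear scale. The summary and scaling of probe signals are not given in the sources used here, and the number of arrays limits the precision.

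Source names gave each sample's group. The 10 genes and 10 lists of 162 other genes, 155 of them on the array, were chosen with earlier results of these data known. Each gene was read by its probe set of highest mean log2 value across the arrays, through the platform annotation with symbols updated by gene identifier. Values below 24.8 (the 20th percentile) were set to it, log2 was taken, and genes were tested where they exceeded 77.9 (the 50th percentile) on at least 2 arrays. limma 3.58.1 in R 4.3.3 (lmFit, eBayes with an intensity trend, two-sided, Benjamini-Hochberg adjustment over all genes tested) was used throughout. The 14 liver arrays shared 1 fit of group means, which left 7 residual degrees of freedom. The tissues were compared over 12 arrays of the 4 matched stages, stage being a factor, and the change of their difference as an interaction with day, called at 0.25 log2 per day. All 10 genes are named in each main comparison. From the lists of sinusoidal genes, general genes and ligands, up to 2 called genes are named in each direction. For Stab2 and Cdh5 the 5 most alike genes are named, members and predicted genes aside. The code was tested on simulated data.

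Alternatives were other floors, no filter, median centring, quantile normalization, the mean over probe sets, no trend, a replicate block, all 18 arrays in 1 fit, each array left out, and no 10.5 and 12.5 dpc arrays. Replicate numbers did not pair the samples. Over 21 pairs of liver groups the correlation of same-numbered arrays' deviations was -0.35 to 0.25, with a median of 0.02, so no block was used in the results as reported.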

Additional observations from a re-analysis of the deposited data

Results flagged for a closer look

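For 8 of the 10 genes the difference between liver and the rest of the embryo changed with day, by a test of the interaction itself with limma, against 16.1% of all genes tested. The change was 0.39 log2 per day for Stab2, with the liver gaining. It was -0.61 for Lyve1, -0.39 for Kdr, -0.30 for Flt1, -0.62 for Tek, -0.53 for Pecam1, -0.37 for Cdh5 and -0.71 log2 per day for Emcn, with the liver losing. Without the 14.5 dpc rest-of-embryo array 0 of the 8 were called and Lyve1 reversed to 0.09 log2 per day, while the Stab2 slope was 0.71 and that of Emcn -0.59. Without the 10.5 dpc rest-of-embryo array the Stab2 slope was 0.20 log2 per day and was not called. Of 19 alternatives, Stab2 lost its call in 3, Lyve1 in 13 and Cdh5 in 12. No group held more than 2 liver arrays or 1 rest-of-embryo array, so a single array far from the others of its group was not looked for. Liver and rest-of-embryo arrays came in 2 forms of values, and tissue and processing cannot be told apart in the size of these differences.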

How the results depend on the processing

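Of the 8 counts of called members, each with its own set of alternatives, most stayed within 1.5 times the reported count. With the higher floor the 16.5 against 11.5 dpc count went from 1 to 0 and the adult against 16.5 dpc count from 2 to 1, as it also did with the mean over probe sets. The count of differences changing with day went from 8 to 5 under median centring, quantile normalization and the mean over probe sets. Without the 10.5 and 12.5 dpc arrays the count over any stage went from 4 to 0, and that of all genes from 2772 to 1278. Causes were not tested, except that Emcn, Pecam1 and Flt1 each left the tests under some alternatives.

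Leaving out each array in turn gave 3 to 5 members for 16.5 against 10.5 dpc, 0 to 1 for 16.5 against 11.5 dpc and 2 to 3 for adult against embryonic liver. It gave 1 to 2 for adult against 16.5 dpc, 4 to 5 over any stage, 1 to 4 over successive stages, 5 to 7 for liver against rest and 0 to 8 for the change with day. The lowest counts came without replicate 1 at 10.5 dpc (3 for 16.5 against 10.5 dpc, 1 over successive stages), either 10.5 dpc array (0 for 16.5 against 11.5 dpc), adult replicate 1 (1 for adult against 16.5 dpc) and the 14.5 dpc rest-of-embryo array (0 for the change with day). That last count was 5 and 4 without liver replicate 1 or 2 at 14.5 dpc. Over all genes, successive stages gave 972 to 2179 calls (1241 as reported) and the change with day 792 to 2485 (2399). The Lyve1 change with day, -0.61 log2 per day as reported, ran from -1.10 without the 10.5 dpc rest-of-embryo array to 0.09, a reversal, without the 14.5 dpc one.

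The replicate block left the counts at 5, 1, 2, 2, 4 and 3 in the 6 liver comparisons and changed no call. Over single members and settings, 1413 values were on the same side, 57 fell below the threshold, 24 passed it and 36 moved. Of all calls between tissues, 21.4% were higher in liver as deposited, 42.2% with median centring and 47.6% with quantile normalization. With 2 arrays a group, and Emcn, Flt1 and Pecam1 near the filter level in liver, small changes of these genes are not measurable here.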
